A study of Mus musculus with 12 samples.

Results

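Transcripts that belong to neurons, oligodendrocytes and astrocytes were followed in RNA of sorted mouse microglia. They are given by a list of 31 gene names, each a marker of 1 of these 3 lineages, and 29 of them had a row among the 770 genes of the NanoString nCounter Neuroinflammation panel. These were 11 oligodendrocyte genes, 12 neuron genes and 6 astrocyte genes. The astrocyte genes *Gfap* and *Aqp4* had no row in the table analysed here.

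The microglia came from mice of the strain that the labels spell C57B6, and each sample pooled the CNS of a male and a female. The labels call mice and cells untreated, whereas the study describes tamoxifen given to young Cx3cr1-CreERT2 mice, which was recent in the adult and long past in the aged animals. Whether these samples carried a floxed *Ulk1* allele, which the study deletes elsewhere, is not stated for this experiment. Aged mice were older than 80 weeks, and their microglia were separated by the phosphorylation of ERK1/2 into P-ERK1/2 High (samples 2, 5, 7 and 8) and P-ERK1/2 Low (samples 3, 6, 9 and 12). Adult mice were 12 to 20 weeks old, and their microglia were taken whole, whatever their ERK1/2 phosphorylation (samples 1, 4 and 10). A further adult sample, number 11, was marked by the submitters as excluded for poor quality and enters no comparison except where it is named. All groups went through enzymatic dissociation, CD11b beads, fixation, permeabilization and staining for the phosphorylated kinase, and cells were taken as YFP+, CD45 Intermediate and Ly6G-. The YFP reporter belongs to the Cx3cr1-CreERT2 allele and is driven by the *Cx3cr1* promoter, which is also active in other myeloid cells. Adult mice were thus compared only as unseparated cells, so age, separation and the time since any tamoxifen cannot be told apart in a difference between an aged fraction and the adult samples.

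Oligodendrocytes wrap axons in myelin, and their transcripts encode structural myelin proteins, lipid-synthesizing enzymes and the factors that switch these genes on. Neurons are marked by synaptic, cytoskeletal and receptor transcripts, and astrocytes by channels, gap junctions and enzymes that buffer potassium, glutamate and one-carbon units. Microglia are the myeloid cells of the CNS and are recognised by the low level of most of these RNAs beside a high level of their own markers. In RNA of bulk samples, fewer cells of a type and less RNA per cell cannot be told apart.

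Each panel carries 8 negative control probes, which have no target, and their mean plus 2 SD in a sample set the background count that a transcript had to exceed there. In P-ERK1/2 High samples 19 of the 29 transcripts were above background in at least 1 sample and 9 in all 4. In P-ERK1/2 Low samples 5 were above background in at least 1 sample and 4 in all 4. In adult samples 11 were above background in at least 1 sample and 4 in all 3, and without adult sample 4, the one with the most counts, the 11 became 7. The 4 transcripts above background in every one of the 11 samples were *Cnp*, *Dlg4*, *Gja1* and *Sox9*, and they were the same 4 that were detected throughout the P-ERK1/2 Low and the adult group. Of all genes on the panel, 9.48% were above background in no P-ERK1/2 High sample, 36.1% in no P-ERK1/2 Low sample and 26.2% in no adult sample. For the lineage transcripts these shares were 34.5%, 82.8% and 62.1%.

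**Figure D1:**
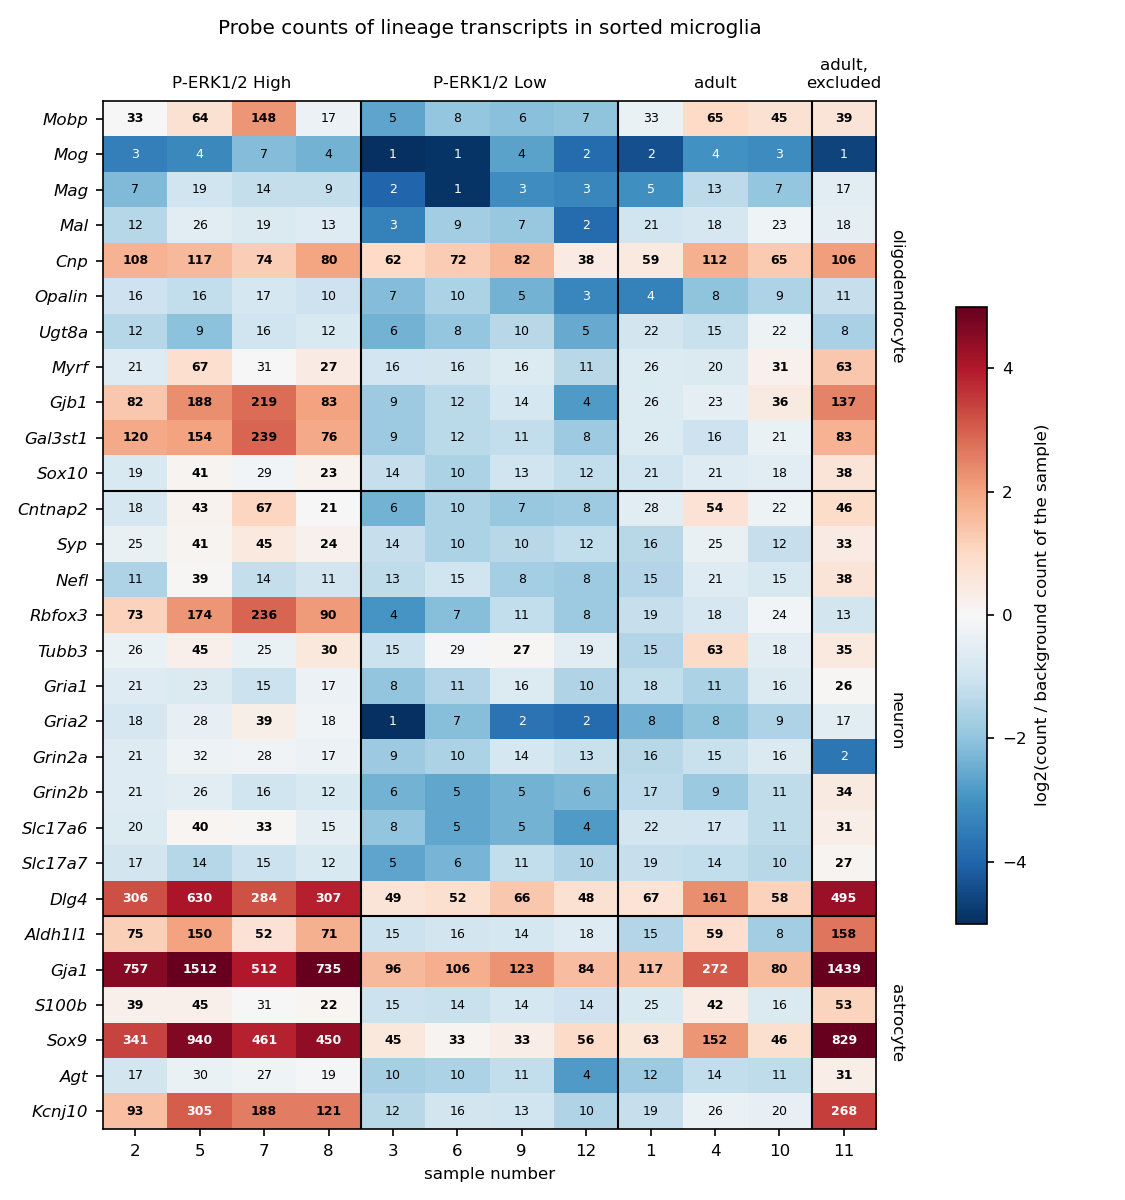
Probe counts of the 29 transcripts (rows, by lineage) in the 12 samples (columns, by group), with the count printed in each cell and in bold where it is above the background of that sample; color gives log2 of the count over that background. *Gja1* is above background in all samples, whereas *Mog* does not exceed 7 counts in any.

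The depth behind these counts differed between the groups. The gene counts of a sample summed to between 650965 and 1539936 for P-ERK1/2 High, between 123798 and 157209 for P-ERK1/2 Low and between 137980 and 326575 for adult microglia. The background counts spanned 20.6 to 37.7, 25.9 to 31.3 and 26.4 to 41.9 in the same order. After the normalization to housekeeping genes, the same background corresponded, in the same order, to normalized values of 26.1 to 39.5, 69.2 to 117 and 37.9 to 95.1, so a transcript had to reach a higher normalized value to be detected in P-ERK1/2 Low. The part of depth in the differences below was not tested. Of 15 microglia markers, all were above background in every P-ERK1/2 High sample, 12 in every adult sample and 9 in every P-ERK1/2 Low sample, where *P2ry12* and *Gpr34* were above background in no sample.

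The first comparison asked how these transcripts differ between the 2 fractions of aged microglia. Of the 29 transcripts, 11 passed p below 0.01 and a fold change beyond 1 on the log2 scale, as did 37.8% of all genes (limma on log2 of the normalized value plus 1, n = 4 and 4). Of these, 8 transcripts, *Kcnj10*, *Sox9*, *Gja1*, *Rbfox3*, *Dlg4*, *Gria2*, *Gjb1* and *Gal3st1*, were higher in P-ERK1/2 High, against 28.2% of all genes tested. The other 3, *Cnp*, *Tubb3* and *Nefl*, were lower, against 9.61% of all genes. The values of the 2 groups did not overlap for 12 of the 29 transcripts and for 49.4% of all genes. The median log2 fold change was 0.03 over the 29 transcripts and 0.26 over all genes.

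Of the 6 astrocyte genes, *Gja1*, *Sox9* and *Kcnj10* were higher in P-ERK1/2 High and the other 3 were not called. *Gja1* encodes connexin 43, the main gap junction protein of astrocytes. Its normalized values were 921, 1081, 575 and 931 in P-ERK1/2 High samples 2, 5, 7 and 8, and 325, 372, 329 and 345 in P-ERK1/2 Low samples 3, 6, 9 and 12. The lowest value of P-ERK1/2 High exceeded the highest of P-ERK1/2 Low, and the groups differed by 1.32 ± 0.24 (SE) on the log2 scale (limma, adjusted p = 0.00076). *Sox9*, a transcription factor of astrocytes and glial precursors, was measured at 415, 672, 518 and 570 in P-ERK1/2 High and at 152, 116, 88.3 and 230 in P-ERK1/2 Low. The groups were again apart, with a log2 fold change of 1.95 ± 0.30 (limma, adjusted p = 0.00028).

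*Kcnj10* encodes Kir4.1, the potassium channel with which astrocytes clear extracellular potassium. Its values in P-ERK1/2 High were 113, 218, 211 and 153. In P-ERK1/2 Low they were 40.7, 56.1, 34.8 and 41.0, and none of these was above background. The fitted log2 fold change was 1.96 ± 0.27 (limma, adjusted p = 0.000113), but because P-ERK1/2 Low was not above background the difference is given as a bound. Set against the mean background of the P-ERK1/2 Low samples on the log2 scale, *Kcnj10* was at least 1.72-fold higher in P-ERK1/2 High on the deposited scale. With counts and backgrounds brought to equal total counts the same ratio was 0.844, so there the bound was lost.

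Reference promoter windows of RefSeq on GRCm38.p6, from 250 bases before to 50 bases after the start site, were at hand for 22 of the 29 genes. Those of *Gja1* and *Kcnj10* are shown because, of the astrocyte genes called in both comparisons of P-ERK1/2 High, these had a window. *Sox9* was called in both as well and had none at hand. Capitals mark the AP-1 motif TGANTCA in *Gja1*, which reads the same on both strands, and the Sp1 motif GGGCGG, on either strand, in *Kcnj10*. *Gja1* lies on the plus strand at chr10:56377050-56377349 and *Kcnj10* on the plus strand at chr1:172340960-172341259.
Gja1: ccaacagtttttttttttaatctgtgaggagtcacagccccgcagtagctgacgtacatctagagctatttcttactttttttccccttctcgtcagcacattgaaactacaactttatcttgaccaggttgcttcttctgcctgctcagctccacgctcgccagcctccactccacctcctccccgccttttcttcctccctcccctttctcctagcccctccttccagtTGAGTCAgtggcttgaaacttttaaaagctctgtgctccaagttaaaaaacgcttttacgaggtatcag
Kcnj10: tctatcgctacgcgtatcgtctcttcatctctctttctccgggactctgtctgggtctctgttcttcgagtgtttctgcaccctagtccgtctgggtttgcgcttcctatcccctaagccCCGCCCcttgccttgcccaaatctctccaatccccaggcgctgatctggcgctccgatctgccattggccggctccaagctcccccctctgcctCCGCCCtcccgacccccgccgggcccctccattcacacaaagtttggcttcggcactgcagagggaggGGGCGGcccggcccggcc
AP-1 factors of the Fos and Jun families are known targets of ERK1/2. The single match in the *Gja1* window began 19 bases before the start site, and it was the only match in the 33 windows of the 22 genes. Among all 32851 promoter windows of the mouse, 7.81% held one. The *Kcnj10* window held 3 Sp1 matches, and 11 of the 33 windows of the 22 genes held at least 1, beside 35.7% of all windows. These matches describe the letters of the windows, and binding was not measured.

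The other 3 astrocyte transcripts did not pass the test. *Aldh1l1*, an enzyme of folate metabolism and a standard astrocyte marker, was above background in all 4 P-ERK1/2 High samples, with values of 91.3, 107, 58.4 and 90.0, and in no P-ERK1/2 Low sample, with values of 50.8, 56.1, 37.5 and 73.8. The groups overlapped and the log2 fold change was 0.67 ± 0.27 (limma, adjusted p = 0.057). *S100b*, a calcium-binding protein of astrocytes and some oligodendrocytes, was measured at 47.5, 32.2, 34.8 and 27.9 in P-ERK1/2 High and at 50.8, 49.1, 37.5 and 57.4 in P-ERK1/2 Low, with a log2 fold change of -0.45 ± 0.24. *Agt*, which encodes angiotensinogen, was not above background in any of the 11 samples, and in the excluded adult sample 11 it had 31 counts against a background of 24.6.

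Among the neuron genes, *Rbfox3* had the largest fitted difference. It encodes NeuN, the splicing factor by which neuronal nuclei are recognised. Its values were 88.9, 124, 265 and 114 in P-ERK1/2 High, all above background, and 13.6, 24.5, 29.4 and 32.8 in P-ERK1/2 Low, none above background. The fitted log2 fold change was 2.45 ± 0.36 (limma, adjusted p = 0.000212), and against the background of P-ERK1/2 Low it was at least 1.38-fold higher in P-ERK1/2 High on the deposited scale. The same ratio was 1.15 with median-of-ratios scaling and 0.679 with equal total counts, where the bound was lost.

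*Dlg4* encodes PSD-95, a scaffold of the postsynaptic density. It was detected in all 11 samples and was measured at 372, 450, 319 and 389 in P-ERK1/2 High and at 166, 182, 177 and 197 in P-ERK1/2 Low. The groups did not overlap, and the log2 fold change of 1.07 ± 0.20 (limma, adjusted p = 0.00113) lay just beyond the limit of 1. Without P-ERK1/2 High sample 5 it was 0.99 and no longer called.

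*Tubb3*, the neuronal class III beta-tubulin, went the other way. It was measured at 31.7, 32.2, 28.1 and 38.0 in P-ERK1/2 High and at 50.8, 102, 72.2 and 77.9 in P-ERK1/2 Low, with a log2 fold change of -1.16 ± 0.25 (limma, adjusted p = 0.00213). The groups did not overlap in normalized value, yet the counts ranged from 25 to 45 for P-ERK1/2 High and from 15 to 29 for P-ERK1/2 Low, and only 2 and 1 of the 4 samples were above background. *Nefl*, the light neurofilament subunit, was called lower at -1.03 ± 0.32 (limma, adjusted p = 0.0164) with a range of 13.4 to 27.9 for P-ERK1/2 High and of 21.4 to 52.6 for P-ERK1/2 Low. Its count exceeded the background in P-ERK1/2 High sample 5 alone. *Gria2*, a subunit of AMPA-type glutamate receptors, was called higher at 1.57 ± 0.47 (limma, adjusted p = 0.014), with values of 20.0 to 43.8 and 3.39 to 24.5, and was above background in 1 P-ERK1/2 High sample alone. For *Nefl* and *Gria2* no fold can be bounded away from 1. Each call was lost when any of 6 of the 8 samples was left out, though not the same 6 for both.

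The remaining neuron genes did not pass. *Cntnap2*, an axonal adhesion protein, was measured at 21.9, 30.7, 75.2 and 26.6 in P-ERK1/2 High, above background in 3 samples, and at 20.3, 35.1, 18.7 and 32.8 in P-ERK1/2 Low, above background in none. *Syp*, the synaptic vesicle protein synaptophysin, was measured at 30.4, 29.3, 50.5 and 30.4 against 47.4, 35.1, 26.8 and 49.2. *Slc17a6*, the vesicular glutamate transporter VGLUT2, was measured at 24.4, 28.6, 37.1 and 19.0 against 27.1, 17.5, 13.4 and 16.4. The groups overlapped for all 3 of these genes. The glutamate receptor subunits *Gria1*, *Grin2a* and *Grin2b* and the transporter *Slc17a7* (VGLUT1) were above background in none of the 11 samples. In the excluded adult sample 11, where the background was 24.6 counts, *Gria1* had 26 counts, *Grin2b* 34 and *Slc17a7* 27, which is above it, and *Grin2a* had 2.

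**Figure D2:**
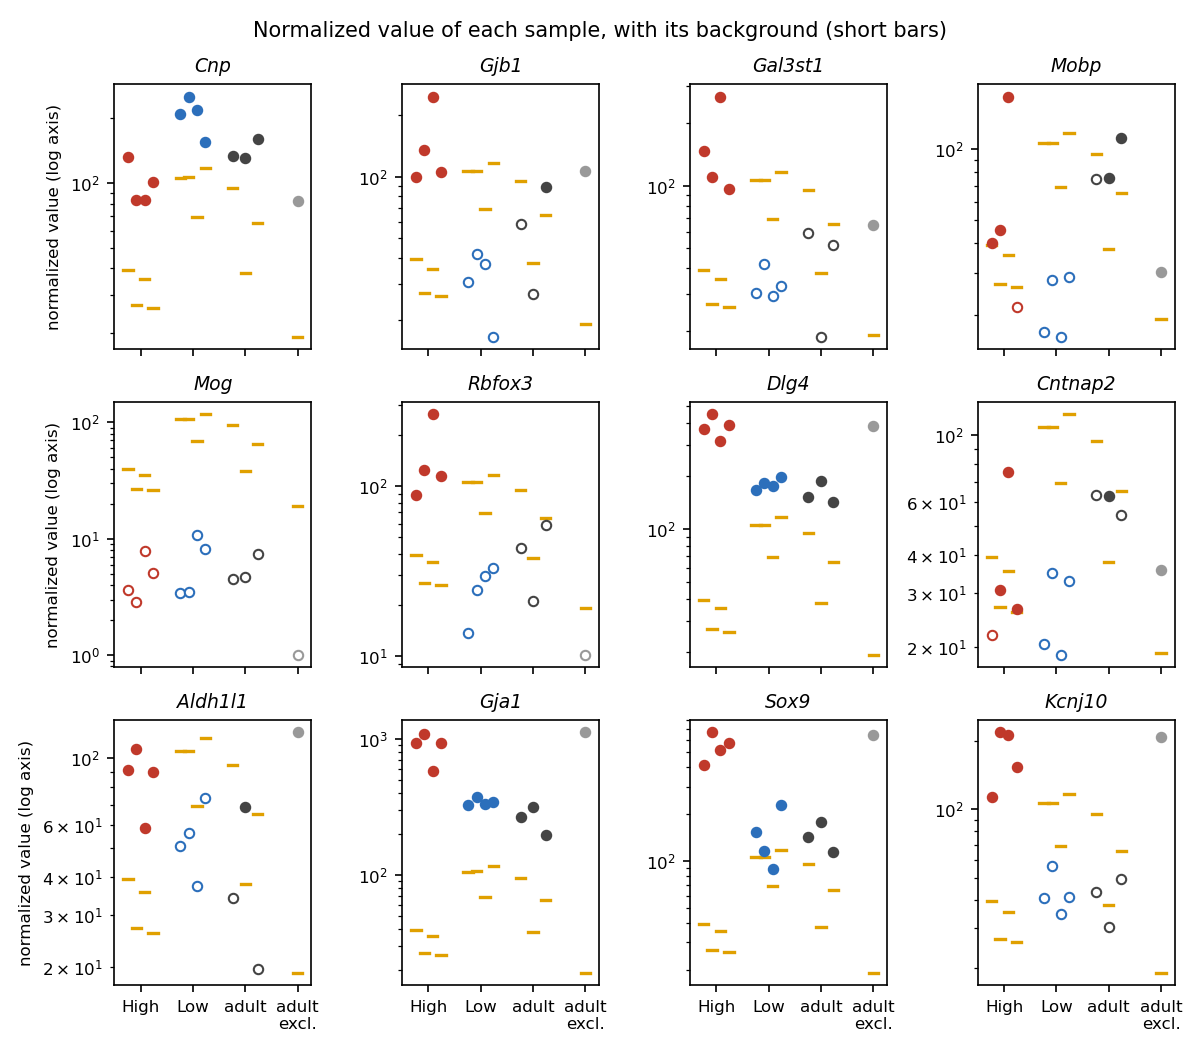
Normalized value (log axis, in units of housekeeping-normalized counts) of 12 transcripts in each sample, with samples ordered by number within P-ERK1/2 High, P-ERK1/2 Low, adult and the excluded adult sample. Filled points are above background, open points are not, and the short bars give the background of each sample on the same scale; the *Kcnj10*, *Rbfox3*, *Gjb1* and *Gal3st1* points are filled in all 4 P-ERK1/2 High samples and open in all 4 P-ERK1/2 Low samples.

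Of the oligodendrocyte genes, *Gjb1* and *Gal3st1* were higher in P-ERK1/2 High and *Cnp* was lower. *Gjb1* encodes connexin 32, a gap junction protein of myelinating cells. Its values were 99.8, 134, 246 and 105 in P-ERK1/2 High and 30.5, 42.1, 37.5 and 16.4 in P-ERK1/2 Low, and the log2 fold change was 2.16 ± 0.35 (limma, adjusted p = 0.000416). The P-ERK1/2 Low values were all at background, and *Gjb1* was at least 1.40-fold higher in P-ERK1/2 High. *Gal3st1* encodes the enzyme that makes the myelin lipid sulfatide. It was measured at 146, 110, 268 and 96.3 in P-ERK1/2 High and at 30.5, 42.1, 29.4 and 32.8 in P-ERK1/2 Low, with a log2 fold change of 2.07 ± 0.31 (limma, adjusted p = 0.000244) and a bound of at least 1.46-fold. Both bounds hold on the deposited scale, and with equal total counts the ratios were 0.685 for *Gjb1* and 0.717 for *Gal3st1*, below 1.

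*Cnp* encodes a phosphodiesterase of non-compact myelin and was the only one of the 11 oligodendrocyte genes followed here that was detected in every sample. Its values were 131, 83.6, 83.1 and 101 in P-ERK1/2 High and 210, 252, 219 and 156 in P-ERK1/2 Low. All P-ERK1/2 Low samples lay above all P-ERK1/2 High samples, with a log2 fold change of -1.07 ± 0.24 (limma, adjusted p = 0.00315). The call was lost without P-ERK1/2 High sample 5 (-0.99), without P-ERK1/2 High sample 7 (-0.99) and without P-ERK1/2 Low sample 6 (-0.97).

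*Mobp* encodes a protein of compact myelin and varied widely among P-ERK1/2 High samples. It was measured at 40.2, 45.7, 166 and 21.5 in P-ERK1/2 High, above background in 3 samples, and at 16.9, 28.1, 16.1 and 28.7 in P-ERK1/2 Low, above background in none (log2 fold change 1.20 ± 0.50, limma, adjusted p = 0.0642). The transcription factors of the lineage, *Myrf* and *Sox10*, were each above background in 2 P-ERK1/2 High samples and in no P-ERK1/2 Low sample. *Myrf* was measured at 25.6, 47.9, 34.8 and 34.2 against 54.2, 56.1, 42.8 and 45.1. *Sox10* was measured at 23.1, 29.3, 32.6 and 29.1 against 47.4, 35.1, 34.8 and 49.2. For both genes the mean normalized value was thus lower in the group in which the transcript was detected, and neither difference passed the test. The compact myelin and myelin surface genes *Mog*, *Mag*, *Mal* and *Opalin* and the galactolipid enzyme *Ugt8a* were above background in none of the 11 samples, and in sample 11 they were not either.

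Transcripts at background do not have a fold change of 0 on this scale. The 8 negative control probes, multiplied by the factor of each sample, had a median log2 difference of -1.39 for P-ERK1/2 High over P-ERK1/2 Low, with 6 of 8 below 0. The 10 lineage transcripts that were above background in none of the 11 samples had a median of -0.30, with 7 of 10 below 0. *Tubb3* and *Nefl*, at -1.16 and -1.03, lay within the range of -1.94 to 1.29 of the control probes, and so did *Cnp* at -1.07 and *Dlg4* at 1.07, though *Cnp* and *Dlg4* were above background throughout. The upper end of this range was set by 1 probe, and the next highest probe was at 0.12, below both *Dlg4* and *Gja1* (1.32).

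**Figure D3:**
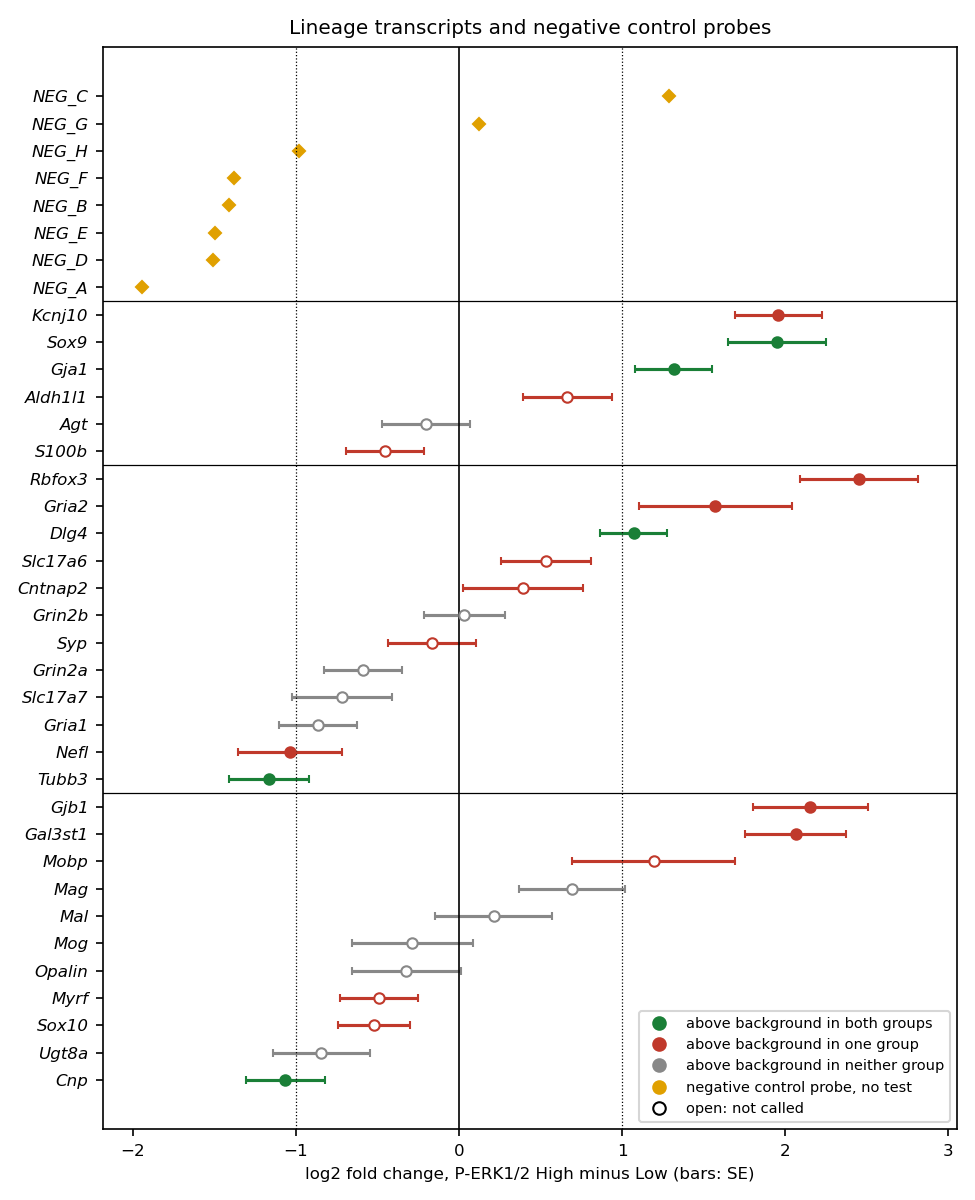
Log2 fold change of P-ERK1/2 High over P-ERK1/2 Low (x axis) with its SE for the 29 transcripts, and the log2 difference of the 8 negative control probes on the same scale (diamonds, no test). Filled points passed the test, dotted lines mark the fold limit of 1, and color gives the groups in which the transcript was above background; *Rbfox3* at 2.45 is the highest and *Tubb3* at -1.16 the lowest.

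How many transcripts were higher or lower depended on the scaling of the samples. With equal positive controls 24 of the 29 were called higher and none lower, beside 85.6% and 0% of all genes. With subtraction of the negative controls 15 were higher and 1 lower, beside 35.8% and 6.49% of all genes. Median-of-ratios scaling gave 6 higher and 4 lower, beside 22.7% and 16.0% of all genes, and quantile normalization 5 and 5, beside 19.5% and 18.3%. With equal total counts, 1 was higher and 12 were lower, beside 7.66% and 40.4% of all genes. The median over all genes moved with the scaling, from 0.26 as deposited to 2.14 with positive controls, 0.83 with the background subtracted, -0.01 with median-of-ratios, -0.11 with quantiles and -0.75 with total counts. *Rbfox3* was called higher under each of these scalings, with 1.44 on the log2 scale at equal total counts. *Gjb1*, *Gal3st1*, *Kcnj10* and *Sox9* were called under all of them except equal total counts, where they were at 1.14, 1.05, 0.94 and 0.93. *Gja1* was not called with quantiles (0.71) or total counts (0.29), and *Dlg4* with neither of these (0.72 and 0.05) nor with median-of-ratios (0.81). *Gria2* was not called with median-of-ratios (1.33), quantiles (1.31) or total counts (0.62). *Cnp*, *Tubb3* and *Nefl* turned to 0.90, 0.77 and 0.85 with positive controls, and with the background subtracted *Tubb3* and *Nefl* were not called (-0.90 and -0.30). With 20 in place of 1 added before the logarithm, *Cnp* (-0.94), *Tubb3* (-0.84), *Nefl* (-0.60), *Gria2* (0.66) and *Dlg4* (1.00) were not called. This left 6 transcripts higher and none lower, beside 25.1% and 6.49% of all genes.

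**Figure D4:**
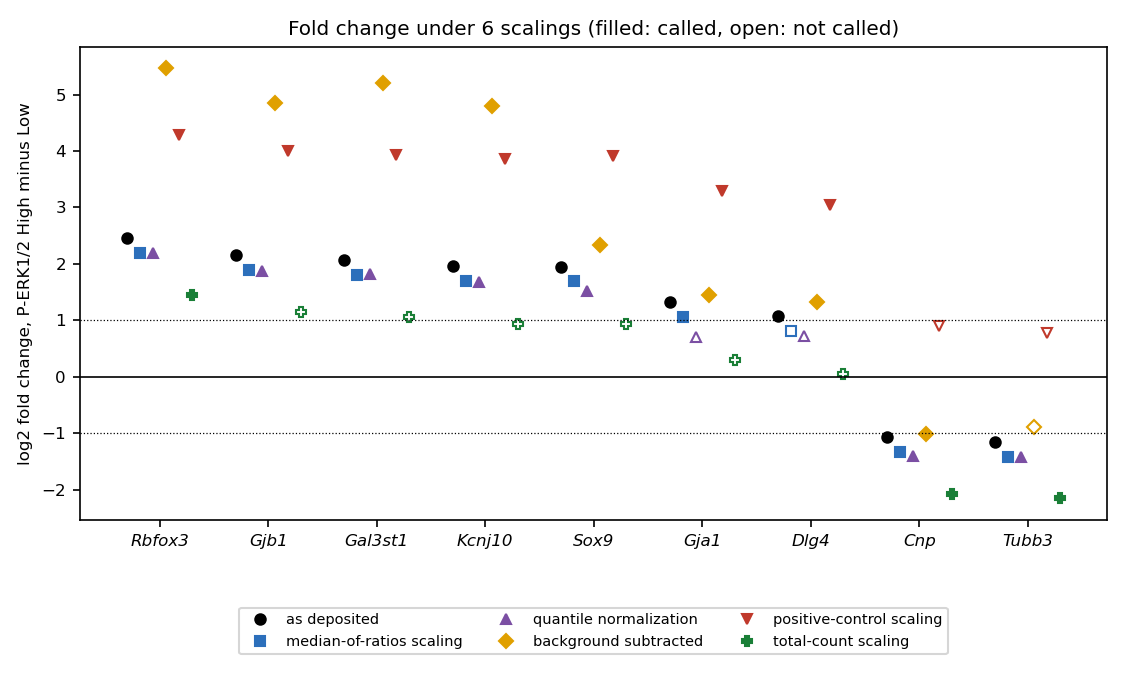
Log2 fold change of P-ERK1/2 High over P-ERK1/2 Low (y axis) of 9 transcripts under the deposited scaling and 5 others; filled symbols passed the test and dotted lines mark the fold limit of 1. *Rbfox3* is filled in all cases, and *Cnp* and *Tubb3* lie above 0 under positive-control scaling alone.

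P-ERK1/2 High samples were not alike in these transcripts. Sample 7 had the highest normalized value of the 4 for 15 of the 29 transcripts, among them *Mobp*, *Gjb1*, *Gal3st1*, *Rbfox3*, *Cntnap2* and *Syp*, and the lowest for 5, *Cnp*, *Tubb3*, *Dlg4*, *Aldh1l1* and *Gja1*. Sample 5, with the most counts, was highest for 7, including the 4 astrocyte genes *Gja1*, *Sox9*, *Aldh1l1* and *Kcnj10*. The 2 other astrocyte genes were highest elsewhere, *S100b* in sample 2 and *Agt* in sample 7.

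The second comparison set the P-ERK1/2 Low fraction of aged mice against adult microglia. *Mobp* and *Cntnap2* were lower in P-ERK1/2 Low and no lineage transcript was called higher (n = 4 and 3). Of all genes tested, 10.8% were called, 2.73% lower and 8.05% higher. The values of the 2 groups did not overlap for 3 of the 29 transcripts, *Mobp*, *Cntnap2* and *Gja1*, and for 36.5% of all genes. The calls became 4 without P-ERK1/2 Low sample 6 and 4 without adult sample 4. With positive controls 9 transcripts were lower and none higher, beside 28.2% and 1.04% of all genes, and with equal total counts 3 were lower and none higher, beside 7.66% and 3.12%. With the background subtracted 4 were lower and none higher, beside 7.66% and 7.14% of all genes. *Mobp* was measured at 74.9, 75.7 and 111 in adult samples 1, 4 and 10, and above background in samples 4 and 10. All adult values lay above the 16.1 to 28.7 of P-ERK1/2 Low, with a log2 fold change of -1.94 ± 0.27 (limma, adjusted p = 0.00232). *Cntnap2* was measured at 63.5, 62.9 and 54.4 in adult samples, of which sample 4 alone was above background, and differed by -1.19 ± 0.25 (limma, adjusted p = 0.0107). Because both transcripts were at background in P-ERK1/2 Low and in at least 1 adult sample, no fold can be bounded away from 1 for either. In the excluded adult sample 11 *Mobp* was at 30.3 and *Cntnap2* at 35.7, and with this sample added *Mobp* stayed called and *Cntnap2* did not. Of all genes, 2.73% were then higher and 1.69% lower.

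The 4 transcripts detected in every sample were not called between P-ERK1/2 Low and adult samples. *Gja1* was measured at 265, 317 and 198 in adult samples and differed from P-ERK1/2 Low by 0.42 ± 0.18 (limma, adjusted p = 0.127). *Sox9* was measured at 143, 177 and 114 and differed by -0.05 ± 0.32. *Dlg4* was measured at 152, 187 and 143 and differed by 0.17 ± 0.15. *Cnp* was measured at 134, 130 and 161 and differed by 0.55 ± 0.19 (limma, adjusted p = 0.0728). None of these 4 differences passed the test, which does not show that the levels were equal.

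The third comparison set P-ERK1/2 High against adult microglia and shares its P-ERK1/2 High samples with the first and its adult samples with the second. *Kcnj10*, *Sox9*, *Gja1*, *Gal3st1*, *Rbfox3*, *Gjb1* and *Dlg4* were higher in P-ERK1/2 High, which is 7 of 29 against 29.2% of all genes. *Mal* and *Ugt8a* were called lower, against 7.66% of all genes, and 36.9% of all genes were called in either direction. The values of the 2 groups did not overlap for the 7 higher transcripts and for 50.3% of all genes. *Sox9* differed by 1.91 ± 0.27 (limma, adjusted p = 0.000259), *Gja1* by 1.74 ± 0.29 (limma, adjusted p = 0.000803) and *Dlg4* by 1.24 ± 0.24 (limma, adjusted p = 0.00202), and each was above background in all samples of both groups.

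*Kcnj10* was measured at 43.1, 30.3 and 49.4 in adult samples and *Rbfox3* at 43.1, 21.0 and 59.3, and neither was above background there. Against the adult background *Kcnj10* was at least 2.72-fold higher in P-ERK1/2 High and *Rbfox3* at least 2.19-fold. *Gal3st1*, at 59.0, 18.6 and 51.9 in adult samples and above background in none, was at least 2.31-fold higher. These bounds are those of the deposited scale. With equal total counts the ratios were 1.02 for *Kcnj10*, 0.82 for *Rbfox3* and 0.866 for *Gal3st1*, so those of *Rbfox3* and *Gal3st1* were lost. *Gjb1* was measured at 59.0, 26.8 and 89.0 in adult samples and above background in sample 10, and its difference of 1.37 ± 0.43 (limma, adjusted p = 0.023) was no longer called when any of 5 of the 7 samples was left out. *Mal*, with a protein of myelin rafts, was fitted at -1.09 ± 0.34 and *Ugt8a* at -1.44 ± 0.44, but neither was above background in any sample of the 2 groups, so these calls are not read as differences in the transcripts.

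The excluded adult sample 11 bore on this comparison. It had 1464449 gene counts, within the range of P-ERK1/2 High, and a geometric mean of 286 counts over the positive control probes, against 954 to 1460 in the other samples. In it *Gja1* was at 1116, *Sox9* at 643, *Dlg4* at 384, *Kcnj10* at 208 and *Gjb1* at 106, each above the 3 other adult samples and within or above the range of P-ERK1/2 High. *Rbfox3*, at 10.1, was below all 3 and not above background. With sample 11 among the adult samples 2 transcripts remained called, *Rbfox3* at 2.26 and *Gal3st1* at 1.68. Of all genes, 6.36% were then called higher and 0% lower, against 29.2% and 7.66% without this sample. *Gja1*, *Sox9*, *Kcnj10*, *Dlg4* and *Gjb1* were at 1.21, 1.36, 1.45, 0.93 and 1.12 without passing.

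With equal total counts the third comparison turned as well. All 18 calls among the 29 transcripts were then lower in P-ERK1/2 High, beside 47.0% of all genes lower and 5.19% higher and a median of -1.04 over all genes, and *Gjb1* and *Dlg4* had values of -0.03 and -0.17. With median-of-ratios scaling 5 were higher and 3 lower, beside 20.8% and 15.6% of all genes, and with quantiles 4 and 2, beside 18.4% and 17.9%. With positive controls 9 were higher and 0 lower, beside 54.5% and 0.13% of all genes, and with the background subtracted 8 and 1, beside 29.9% and 4.42%.

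Other genes of the 3 lineages on the panel gave a wider view. They were 15 oligodendrocyte, 28 neuron and 5 astrocyte genes listed from the panel by where they are known to be expressed. Between the aged fractions, 4 of the 15 oligodendrocyte genes were higher in P-ERK1/2 High and none lower, with a median of 0.17. Of the 28 neuron genes 9 were higher and 1 was lower, with a median of 0.54. Of the 5 astrocyte genes 1 was higher and 1 lower, with a median of -0.02. These counts stand beside the 28.2% higher and 9.61% lower over all genes.

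The neuron genes with the largest fold changes were *Bdnf*, a neurotrophin, at 2.80 ± 0.32, *Camk4*, a calcium-dependent kinase, at 2.32 ± 0.56 and *Nlgn1*, a postsynaptic adhesion protein, at 2.19 ± 0.36. All 3 were above background in every P-ERK1/2 High sample, and in P-ERK1/2 Low *Bdnf* was so in 2 samples and the others in none. The study also measured *Bdnf* mRNA in microglia sorted from co-cultures and counts it among mediators that microglia make. Its place in the neuron list therefore does not make it a sign of neurons. At the other end *Cx3cl1*, the ligand of the microglial receptor CX3CR1, was at -1.05 ± 0.28, with 1 P-ERK1/2 High and no P-ERK1/2 Low sample above background. Among the oligodendrocyte genes *Erbb3*, a neuregulin receptor, was at 2.36 ± 0.47 and above background in all P-ERK1/2 High samples. *Pllp*, a myelin membrane protein, and *Gpr62*, an orphan receptor, were at 1.67 ± 0.41 and 1.20 ± 0.29 but above background in 1 P-ERK1/2 High sample each. *Entpd2*, an ectonucleotidase, was the astrocyte gene called higher at 1.16 ± 0.33, and *Gdpd2* was called lower at -1.10 ± 0.25 without being above background in either group.

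Between P-ERK1/2 Low and adult samples, 1 of the 15 oligodendrocyte genes, 2 of the 28 neuron genes and 1 of the 5 astrocyte genes were called higher and none lower, beside 8.05% and 2.73% of all genes. Of these, the oligodendrocyte gene *Plxnb3* and the astrocyte gene *Gdpd2* exceeded the background nowhere in the 2 groups, so their calls are not read as differences. Between P-ERK1/2 High and adult samples, 2 of the 15 oligodendrocyte genes were higher and 1 lower, 9 of the 28 neuron genes were higher and none lower, and none of the 5 astrocyte genes was called, beside 29.2% higher and 7.66% lower over all genes.

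Markers of other cell types were measured in the same samples, and whether their groups overlapped depended on the scale. Of 11 endothelial markers, 9 were above background in at least 1 P-ERK1/2 High sample, 4 in P-ERK1/2 Low and 8 in adult samples. Their summed normalized value was 3075 to 4782, 1315 to 2166 and 1253 to 1531 in these groups, and their share of all counts was 0.351% to 0.471%, 0.287% to 0.427% and 0.367% to 0.445%. The endothelial sums of the aged fractions were thus apart as normalized values and overlapped as shares.

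Of 14 T and NK cell markers, 9, 0 and 1 were above background in the same order. Their sums were 383 to 1227, 235 to 340 and 205 to 404, and their shares 0.0438% to 0.129%, 0.056% to 0.0778% and 0.0539% to 0.126%. The 15 microglia markers summed to 24624 to 37529, 30404 to 35837 and 23041 to 27047 and took 2.82% to 3.41%, 7.06% to 7.23% and 7.11% to 7.53% of all counts. The microglia sums of the aged fractions overlapped as normalized values and were apart as shares. Of the 11 endothelial markers, 5 were called higher between the aged fractions and none lower, and of the 14 T and NK cell markers 2 higher and none lower. Of the 15 microglia markers, 5 were higher and 1 was lower. All these stand beside 28.2% higher and 9.61% lower over all genes. The part of other cell types in the lineage transcripts was not tested.

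The 29 lineage transcripts together had a summed normalized value of 2839 to 3447 in P-ERK1/2 High samples, 1501 to 1827 in P-ERK1/2 Low samples and 1509 to 1715 in adult samples. Their share of all counts was 0.287% to 0.446%, 0.347% to 0.399% and 0.397% to 0.536% in the same order. The aged fractions were thus apart in the first measure and overlapped in the second. By lineage, with P-ERK1/2 High given first and P-ERK1/2 Low second, the 6 astrocyte genes were apart in both measures, at sums of 1427 to 2131 against 556 to 763 and shares of 0.174% to 0.195% against 0.132% to 0.152%. *Gja1* and *Sox9* carried much of this. The 5 other astrocyte genes of the panel were apart the other way as shares, at 0.0093% to 0.0184% against 0.0299% to 0.0339%. Their sums overlapped, at 96.3 to 135 against 128 to 172, and none was above background in P-ERK1/2 Low. The 12 neuron genes were apart as sums, at 702 to 917 against 468 to 607, and overlapped as shares, at 0.0702% to 0.126% against 0.108% to 0.128%. Much of these sums came from *Dlg4*, at 319 to 450 against 166 to 197, and *Rbfox3*, at 88.9 to 265 against 13.6 to 32.8. The median log2 fold change of the 12 neuron genes was -0.07, against 0.26 over all genes, so the sums do not speak for most of them. The 11 oligodendrocyte genes overlapped in both, at 449 to 913 against 390 to 557 and 0.0433% to 0.125% against 0.0767% to 0.122%. The summed counts were 5.90 to 9.64 times what as many average negative control probes gave for P-ERK1/2 High, 1.35 to 2.21 times for P-ERK1/2 Low and 2.11 to 3.84 times for adult microglia. *Cnp*, *Dlg4*, *Gja1* and *Sox9* carried much of these sums. Without these 4, which were set aside because they were detected in every sample, the ratios were 2.41 to 4.65, 0.717 to 1.17 and 1.45 to 2.06, a description that this choice lowers in all groups.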

How the data were processed

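RNA of 12 sorted microglia samples was counted on the nCounter Neuroinflammation panel. The authors normalized the counts in nSolver (version not given in the sources used here) and deposited signal values, in which each gene's count is multiplied by 1 factor per sample from the housekeeping genes; the control probes were deposited as unscaled counts. Division by the factor, recovered from the deposited values, gave counts whole to within 0.1 for 99.8% of 9240 values. The 16 others are values listed at 1 in adult sample 11. Counts were set against the mean plus 2 SD of the 8 negative controls. Groups follow the labels. Each comparison was fitted on its 2 groups with limma 3.58.1 (R 4.3.3) on log2(value + 1), without a filter, and called at p below 0.01 and a log2 fold change beyond 1; folds of low genes are understated by the added 1. The p-values were adjusted over 770 genes by the Benjamini-Hochberg method. The labels do not pair P-ERK1/2 High with P-ERK1/2 Low samples and do not name the mice, so p-values measure the spread between these samples. All 29 symbols matched RefSeq. Values in every sample are given for transcripts above background in a minimum share of the samples of some group (2 of 4 or 2 of 3), and the others by range; outside the members, the 3 highest and lowest genes of the other lineage lists may be named. The members and lists were chosen with earlier results of these data known. Alternatives were other pseudocounts, filters, scalings, thresholds, background rules and sets of samples.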

Additional observations from a re-analysis of the deposited data

Results flagged for a closer look

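Among the 4 P-ERK1/2 High samples, the highest sample stood apart from the other 3 for 5 transcripts, by a gap that took most of the range (Dixon's criterion at the 95% level). In sample 7, *Mobp* was at 166.19, against 21.54 to 45.74 in the others, *Cntnap2* at 75.24 against 21.91 to 30.73, *Syp* at 50.53 against 29.31 to 30.43 and *Gria2* at 43.79 against 20.01 to 22.81. In sample 5, *Nefl* was at 27.88 against 13.39 to 15.72. These are 5 of 58 groups of 4 samples examined, and 4 of the 5 fall on sample 7. The groups are the same samples for different genes and are not independent. A chance rate of 1 in 20 can therefore not be applied to this count. *Nefl* and *Gria2* were above background only in the sample that stood apart.

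The adult sample marked as excluded carried signal above background and above all 3 other adult samples for 7 of the 17 transcripts examined. These 17 were above background in at least 2 of 4 or 2 of 3 samples of some group. In this sample 89.4% of all genes were above background, against 54.2% to 72.7% in the other adult samples. *Gja1* was at 1116.17 against 197.66 to 316.74, *Sox9* at 643.02 against 113.66 to 177, *Dlg4* at 383.95 against 143.31 to 187.48 and *Kcnj10* at 207.88 against 30.28 to 49.42. *Aldh1l1* was at 122.55 against 19.77 to 68.71, *Gjb1* at 106.27 against 26.78 to 88.95 and *Gal3st1* at 64.38 against 18.63 to 58.99.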

How the results depend on the processing

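In the comparison of the aged fractions the 11 calls became 6 with a pseudocount of 20 and 24 with positive-control scaling. Of all genes, 25.1% were higher and 6.49% lower with the pseudocount, and 85.6% and 0% with positive controls. The calls were 8 to 11 when 1 sample was left out. They were 8 without P-ERK1/2 High sample 5 and 8 without sample 7, beside 235 and 289 of the 770 genes. Positive-control scaling turned *Cnp* to 0.90, *Nefl* to 0.85 and *Tubb3* to 0.77. Between P-ERK1/2 Low and adult samples the 2 calls became 1 with a pseudocount of 20, with a mean value of at least 50 or with sample 11 added, 9 with positive-control scaling (28.2% of all genes lower) and 4 with the background subtracted (7.66% lower), and 2 to 4 with 1 sample left out (4 without P-ERK1/2 Low sample 6 and 4 without adult sample 4). From 8.05% higher and 2.73% lower, the shares of all genes went to 6.1% and 1.69% with the pseudocount of 20. With sample 11 added they were 2.73% and 1.69%. Between P-ERK1/2 High and adult samples the 9 calls became 18 with equal total counts and 2 with sample 11 added, and 6 to 10 with 1 sample left out (6 without P-ERK1/2 High sample 2 or adult sample 1). The shares of all genes were 5.19% higher and 47% lower with equal total counts. With sample 11 added they were 6.36% and 0%. *Mal* turned to 0.045 with positive-control scaling, and *Gjb1* to -0.025 and *Dlg4* to -0.17 with equal total counts. Set directly against the unscaled control counts, the deposited values of 24 transcripts in P-ERK1/2 Low and 25 in adult samples would pass, in place of 5 and 11, since a scaled value is then read against an unscaled one. Adult samples gave 21 with sample 11 and 7 to 11 with 1 sample left out, with 7 without sample 4; P-ERK1/2 High gave 18 to 19 and P-ERK1/2 Low 4 to 5. The causes of the other changes were not tested. Equal total counts, the unscaled control counts, the bounds under other scalings and leaving out samples for detection were chosen after seeing the data. The planned count model was not run, because the table mixes scaled and unscaled rows. No paired analysis was possible because the groups share no sample numbers. In P-ERK1/2 Low, counts near background limit what can be told of 24 of the 29 transcripts.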
